A study of Homo sapiens with 21 samples.

Results

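TXNIP, ARRDC2, ARRDC3 and ARRDC4 encode proteins of the alpha-arrestin family, and they are 4 of the 28395 genes counted in Hs578T cells, an established triple-negative breast cancer line. The set was chosen by its lead gene: among genes called lower with nilotinib alone than with DMSO (adjusted p under 0.05, mean log2 CPM of 1 or more, all libraries below DMSO), TXNIP had the strongest fall, and its arrestin-domain relatives were added by name. Every TXNIP comparison with the DMSO or nilotinib-alone group is therefore given as a description with no test. So is every nilotinib-alone value of the other members. The cells were exposed for 8 h to DMSO, 0.1 µM THZ531, 3.16 µM lapatinib, 1 µM nilotinib, lapatinib or nilotinib at these doses together with 0.1 µM THZ531, or 1 µM THZ531. THZ531 blocks CDK12 and CDK13, kinases that act on RNA polymerase II during elongation, and lapatinib and nilotinib inhibit tyrosine kinases. Each of the 7 groups had 3 replicates, which the study describes as coming from separate experiments. All 21 libraries are from this 1 line, and each tyrosine kinase inhibitor was used at 1 dose.

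Alpha-arrestins are adaptors that link membrane proteins to the ubiquitin machinery. Most of them carry PPxY motifs that bind the WW domains of NEDD4-family ligases, which then mark the cargo for uptake from the cell surface. TXNIP binds reduced thioredoxin and also drives internalisation of the glucose transporters encoded by SLC2A1 and SLC2A4, so that a high level lowers glucose uptake. Its transcription follows sugar supply through MondoA (gene MLXIP) or ChREBP (MLXIPL), each of which binds carbohydrate response elements together with MLX. ARRDC4, the nearest relative of TXNIP, is a textbook target of the same factors. ARRDC3 directs integrin beta-4 to degradation and has been studied as a suppressor of invasion in basal breast cancer, and ARRDC2 is the least described of the set.

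The bases before the outermost annotated start of TXNIP and the start of ARRDC4 are shown because both genes are known targets of MondoA with MLX, whose level changed strongly in these cells. The sequences are from RefSeq (GRCh38.p14), 250 bases each, 5′ to 3′ on the gene's strand, at chr1:145996580-145996829 (minus strand) and chr15:97960453-97960702 (plus strand). Capitals mark matches on either strand to CACGNG, the core of a carbohydrate response element, to CCAAT and to the FOXO site GTAAACA.
TXNIP: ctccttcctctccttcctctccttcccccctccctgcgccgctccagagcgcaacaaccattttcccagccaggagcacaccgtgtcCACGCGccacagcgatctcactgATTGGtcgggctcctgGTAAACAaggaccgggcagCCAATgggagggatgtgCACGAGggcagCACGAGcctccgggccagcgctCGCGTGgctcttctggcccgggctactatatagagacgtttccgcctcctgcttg
ARRDC4: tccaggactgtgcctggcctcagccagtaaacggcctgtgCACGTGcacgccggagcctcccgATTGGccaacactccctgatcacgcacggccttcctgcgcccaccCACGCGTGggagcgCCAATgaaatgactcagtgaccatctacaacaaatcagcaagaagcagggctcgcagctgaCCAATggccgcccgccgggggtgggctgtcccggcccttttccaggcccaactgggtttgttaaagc

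In TXNIP, matches to this core began at positions −163, −88, −77 and −55, counted from the annotated start with −1 as the last base before it. The matches at −88 and −77 both read CACGAG and are separated by a spacer that makes them a paired element of the form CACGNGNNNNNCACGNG. This paired form stood in 16 of the 35116 windows of 250 bases before annotated human starts (0.0456%), whereas a single core stood in 26.7% of them. The windows include that of TXNIP. Only this direct repeat was searched as a pair, and pairs with an inverted core were not, so the share holds for this form alone. A FOXO site began at −124 in TXNIP, a motif found in 2.98% of windows, and CCAAT began at −140 and −105, a motif found in 32.0%. In ARRDC4, cores began at −210, −142 and −140, of which the last pair overlap, and the site at −210 is the palindrome CACGTG, which stood in 6.34% of windows. CCAAT began at −187, −128 and −67 in ARRDC4. The other annotated start of TXNIP and both annotated starts of ARRDC2 and of ARRDC3 were searched as well. None of these windows held the paired form, and that of TXNIP held no match to any motif searched. Cores were not confined to TXNIP and ARRDC4. They began at −49, −22 and −13 before the first start of ARRDC2 and at −193 before the second start of ARRDC3. A FOXO site also began at −29 before the second start of ARRDC3. CCAAT began at −93 before the second start of ARRDC2 and at −241 before the first of ARRDC3. A match describes letters only, and the counts per gene do not show which start was used.

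**Figure D1:**
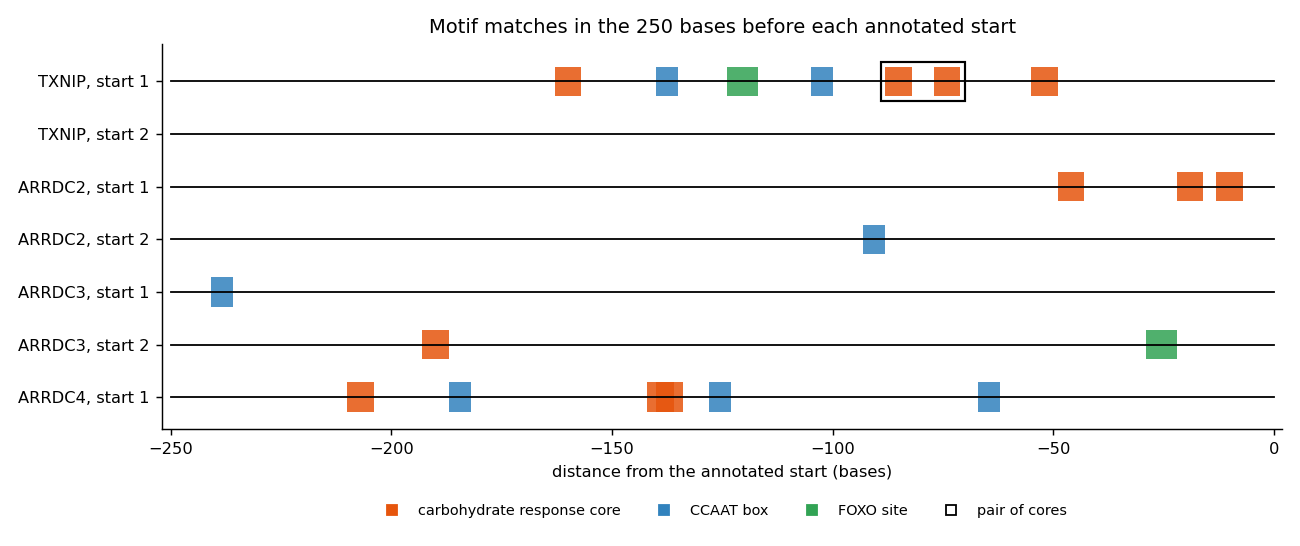
Each line is 1 annotated start, drawn as the 250 bases before it, and the horizontal axis gives the distance to the start in bases; boxes are matches on either strand. The outlined pair of cores occurs before the first TXNIP start at −88 and before no other start shown.

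The deposited counts summed to 97612207 to 112229052 per library, and all 4 members passed the filter on low counts that left 16036 genes. Levels are given as CPM, counts divided by library size after TMM scaling, which takes the bulk of genes to be unchanged. Hs578T markers fitted the label in part. VIM averaged 6845 CPM in DMSO and FN1 1374 CPM. Of 5 markers expected low, PGR, KRT19 and EPCAM stayed under 0.07 CPM in every group mean. The other 2, ESR1 and CDH1, passed the filter on low counts, which asked only for 0.0956 CPM in 3 libraries and does not show a high level. Among markers of other cell types PTPRC averaged 0.797 to 1.06 CPM without a strong treatment and 1.76 to 2.33 CPM in the combinations and with 1 µM THZ531 (its part in the results was not tested), the means of PECAM1, VWF, ALB and ACTA1 lay under 0.6 CPM, and CD3E was at 0 in 4 groups. A pair of libraries stood apart where members are concerned. Nilotinib replicate 1 had 261 CPM of ATF4, a stress-response factor named here after its values were seen, against 115 and 118 in the other nilotinib libraries, 146 to 175 with lapatinib and 78.1 to 86.0 in DMSO. With 1 µM THZ531, replicate 2 had the lowest value of the group for every member. The part of these libraries' state in the results was not tested, and values without them are given where they change a call named here.

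TXNIP varied most. In DMSO it stood at 40.3, 35.5 and 38.6 CPM in replicates 1 to 3, and 0.1 µM THZ531 gave 43.5, 39.5 and 39.2 CPM. Lapatinib gave 15.1, 13.1 and 20.7 CPM, and nilotinib 3.32, 14.8 and 14.6 CPM. With both inhibitors alone every library lay under every DMSO library, and nilotinib replicate 1, the library with high ATF4, was far below its group. Lapatinib with 0.1 µM THZ531 gave 83.2, 91.0 and 96.9 CPM, nilotinib with 0.1 µM THZ531 37.2, 49.5 and 55.6 CPM, and 1 µM THZ531 74.1, 58.5 and 84.2 CPM. The lapatinib combination thus had the highest mean, at 90.4 ± 6.88 CPM (SD, n = 3), followed by 1 µM THZ531 at 72.3 ± 12.9 CPM, and these overlapped by single libraries. Nilotinib with THZ531 (47.4 ± 9.40 CPM) overlapped 0.1 µM THZ531 (40.7 ± 2.42 CPM), which overlapped DMSO (38.1 ± 2.46 CPM). Lapatinib (16.3 ± 3.91 CPM) and nilotinib (10.9 ± 6.57 CPM) were the lowest and overlapped each other.

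**Figure D2:**
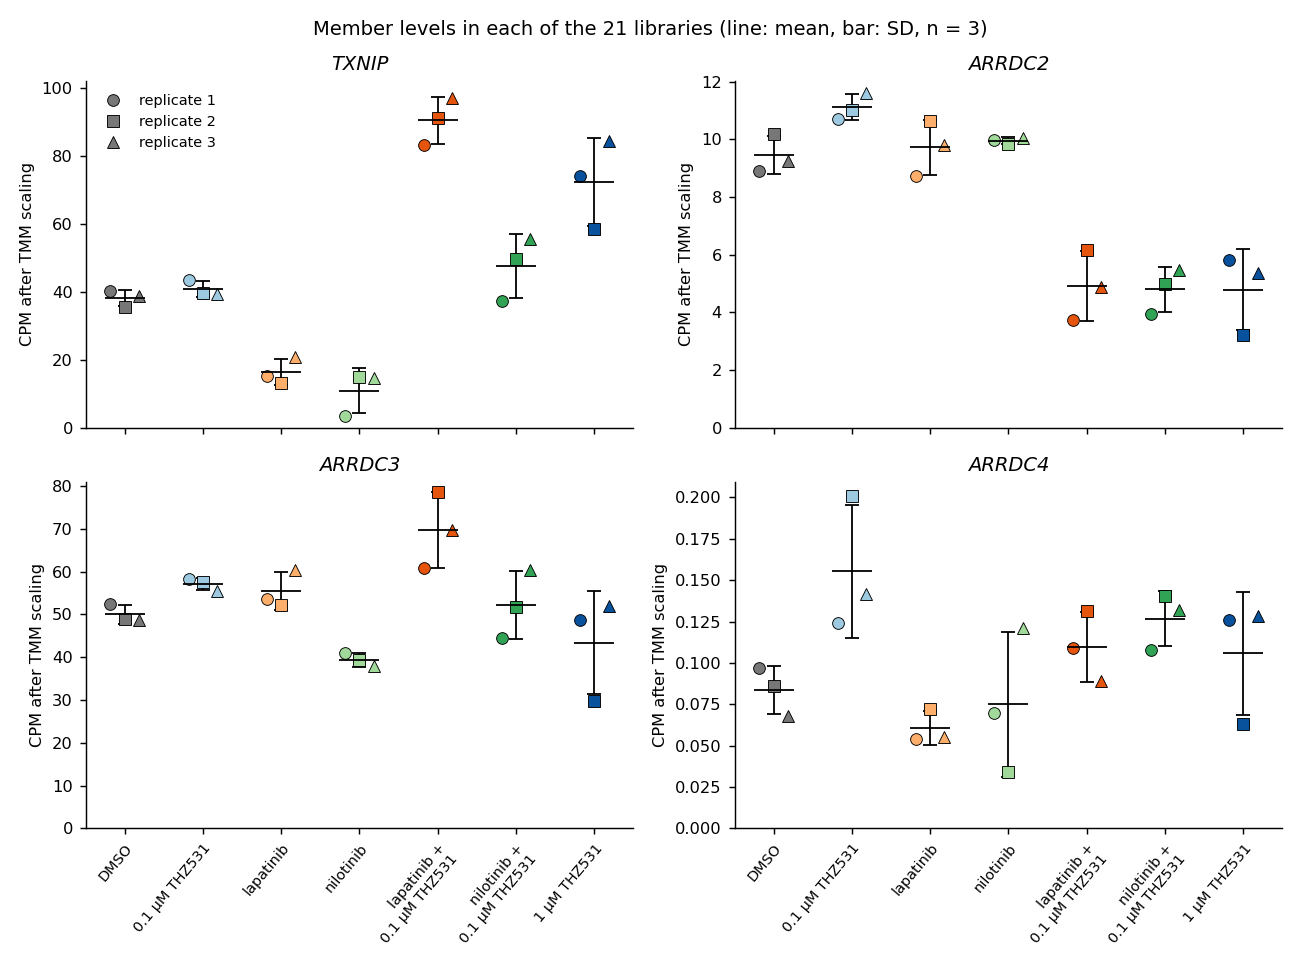
Vertical axes show CPM after TMM scaling in each of the 21 libraries, with symbols for the replicate number, a line for the group mean and bars for the SD (n = 3). TXNIP lies at 83.2 to 96.9 CPM with lapatinib and 0.1 µM THZ531 but at 13.1 to 20.7 CPM with lapatinib alone, and ARRDC2 lies at 3.20 to 6.16 CPM in the last 3 groups.

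Adding lapatinib to 0.1 µM THZ531 raised TXNIP. The log2 FC was 1.15 (SE 0.319, 2.22-fold; edgeR adjusted p = 0.00327), and the 3 libraries of the combination lay above all 3 of 0.1 µM THZ531. Adding 0.1 µM THZ531 to lapatinib raised it from 16.3 to 90.4 CPM, with a log2 FC of 2.47 (SE 0.334, 5.55-fold; edgeR adjusted p = 1.50e-06). The same dose of THZ531 without lapatinib gave a log2 FC of 0.10 against DMSO, and lapatinib without THZ531 gave −1.23. The direction of the lapatinib effect on TXNIP was thus opposite with and without THZ531, and the difference between both effects was 2.38 on the log2 scale, a description since it uses DMSO. Both tested rises compared groups other than DMSO and nilotinib alone, whose libraries entered through the spread that all groups share.

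No such rise was called with nilotinib. Nilotinib with 0.1 µM THZ531 differed from 0.1 µM THZ531 by a log2 FC of 0.22 (95% interval −0.44 to 0.88; edgeR adjusted p = 0.550), with overlapping libraries. Against nilotinib alone the combination was higher by 2.12 on the log2 scale, which is a description. The lapatinib combination was above the nilotinib combination in all 3 libraries, with a log2 FC of 0.93 (95% interval 0.27 to 1.59), but the edgeR adjusted p was 0.176. Nilotinib replicate 1 enters this test only through the spread of TXNIP that all groups share. Without that library the same difference of 0.93 had an adjusted p of 0.00398, and in a fit of the 6 libraries compared it had an adjusted p of 0.114.

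The higher dose of THZ531 also raised TXNIP, by a log2 FC of 0.83 against 0.1 µM (SE 0.317, 1.77-fold; edgeR adjusted p = 0.0261). This call was lost in 4 of the 21 fits that left out 1 library (0.1 µM THZ531 replicate 2 or 3, or 1 µM THZ531 replicate 1 or 3), with adjusted p-values of up to 0.0888. Lapatinib with 0.1 µM THZ531 was not separated from 1 µM THZ531 (log2 FC 0.32, 95% interval −0.34 to 0.98; edgeR adjusted p = 0.502). Nilotinib with 0.1 µM THZ531 lay under 1 µM THZ531 in all libraries, with a log2 FC of −0.61 (95% interval −1.27 to 0.05; edgeR adjusted p = 0.190, or 0.00645 without nilotinib replicate 1). Against DMSO, as a description, the TXNIP difference was 1.25 on the log2 scale in the lapatinib combination, 0.32 in the nilotinib combination and 0.92 at 1 µM THZ531.

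The fall with nilotinib that chose TXNIP was −1.81 on the log2 scale, or −1.38 without nilotinib replicate 1. The genes that follow it in that ranking of called genes were ADAMTS5, a protease of the extracellular matrix, at −0.83 and THBS1, a matrix glycoprotein, at −0.78. With lapatinib alone these genes differed from DMSO by −0.21 (ADAMTS5) and −0.20 (THBS1), with edgeR adjusted p-values of 0.920 and 0.911.

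ARRDC2 moved the other way and in all 3 strong treatments. It stood at 8.90, 10.2 and 9.26 CPM in DMSO, at 10.7, 11.01 and 11.6 CPM with 0.1 µM THZ531 and at 8.72, 10.6 and 9.80 CPM with lapatinib. Nilotinib gave 9.98, 9.83 and 10.1 CPM. Lapatinib with THZ531 gave 3.74, 6.16 and 4.88 CPM, nilotinib with THZ531 3.93, 4.99 and 5.47 CPM, and 1 µM THZ531 5.81, 3.20 and 5.36 CPM. No library of these 3 groups reached the lowest library of the other groups.

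Against 0.1 µM THZ531, ARRDC2 fell by 1.17 on the log2 scale with lapatinib and THZ531 (SE 0.178; edgeR adjusted p = 7.15e-06), by 1.21 in the nilotinib combination (SE 0.178; 5.22e-06) and by 1.21 at 1 µM THZ531 (SE 0.178; 5.21e-06). Each of these is a level 2.26-fold to 2.32-fold lower. Against DMSO the falls were 0.94, 0.98 and 0.98 on the log2 scale, with edgeR adjusted p-values of 8.86e-05, 6.01e-05 and 6.16e-05, and none of these calls was lost when any 1 library was left out. Lapatinib with THZ531 was also lower than lapatinib alone, by a log2 FC of −0.98 (edgeR adjusted p = 5.59e-05). Neither 0.1 µM THZ531 (log2 FC 0.23, adjusted p = 0.502) nor lapatinib (0.04, adjusted p = 0.997) was called against DMSO by edgeR. The interaction of lapatinib with 0.1 µM THZ531 on ARRDC2 was −1.21 (SE 0.247; edgeR adjusted p = 0.000295). The 3 strong treatments did not differ from each other in ARRDC2 beyond their spread, with log2 FC of 0.00 to 0.04 and 95% intervals that reached from −0.38 to 0.42.

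ARRDC3 changed less. It stood at 52.5, 48.8 and 48.6 CPM in DMSO, at 58.3, 57.7 and 55.5 CPM with 0.1 µM THZ531, at 53.6, 52.2 and 60.4 CPM with lapatinib and at 41.0, 39.2 and 37.9 CPM with nilotinib. Lapatinib with THZ531 gave 60.9, 78.5 and 69.7 CPM, nilotinib with THZ531 44.4, 51.7 and 60.3 CPM, and 1 µM THZ531 48.6, 29.8 and 51.9 CPM. The lapatinib combination was above every library of the other groups, and the nilotinib-alone libraries were below every DMSO library.

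ARRDC3 rose with lapatinib and THZ531 against DMSO by a log2 FC of 0.48 (SE 0.147; edgeR adjusted p = 0.00654), against lapatinib alone by 0.33 (adjusted p = 0.0495) and against 1 µM THZ531 by 0.68 (SE 0.148; adjusted p = 0.00143). Against 0.1 µM THZ531 the difference was 0.29 (95% interval −0.02 to 0.59, edgeR adjusted p = 0.0878), although the libraries did not overlap. It was called in 2 of the 21 fits that left out 1 library. These were the fits without lapatinib plus THZ531 replicate 1 and without 1 µM THZ531 replicate 2. The call against lapatinib alone was kept in only 7 of the 21 fits that left out 1 library, over which its adjusted p ranged from 0.00538 to 0.201. Against 1 µM THZ531 the difference stood in all 21, and without replicate 2 of 1 µM THZ531 it was 0.47 on the log2 scale. With 1 µM THZ531 ARRDC3 fell by 0.40 against 0.1 µM THZ531 (edgeR adjusted p = 0.0218), but without replicate 2 the log2 FC was −0.19 (adjusted p = 0.145), so that this library decides it. Without 0.1 µM THZ531 replicate 1 the adjusted p was 0.0519. Nilotinib with THZ531 gave −0.13 against 0.1 µM THZ531 (95% interval −0.44 to 0.17, edgeR adjusted p = 0.435). The lapatinib combination against the nilotinib combination gave 0.42 (edgeR adjusted p = 0.191, or 0.0284 without 1 µM THZ531 replicate 2). With nilotinib alone the log2 FC against DMSO was −0.34, a description. ARRDC3 (chr5:91368631-91383317, minus strand) overlaps ARRDC3-AS1, and these unstranded libraries cannot separate reads of the shared stretch. ARRDC3-AS1 itself had a count of 42 to 108 per library, against 2842 to 7174 for ARRDC3.

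ARRDC4 was close to silent. Its counts were 12, 10 and 8 in DMSO, 14, 23 and 16 with 0.1 µM THZ531, 6, 8 and 6 with lapatinib and 8, 4 and 14 with nilotinib. They were 10, 12 and 8 with lapatinib and THZ531, 10, 13 and 12 with nilotinib and THZ531 and 12, 6 and 12 with 1 µM THZ531. The gene passed the filter because 11 libraries reached its limit of 0.0956 CPM, and all 3 replicates did so only with 0.1 µM THZ531 and with nilotinib plus THZ531. In 19 of 21 libraries the count was even, so a read pair may have been counted as 2, and the number of molecules behind these values may be smaller. No tested contrast called ARRDC4 by edgeR. Its largest difference against DMSO was a log2 FC of 0.88 with 0.1 µM THZ531 (95% interval 0.08 to 1.69; unadjusted p = 0.0334, edgeR adjusted p = 0.210), with every library above DMSO, and against lapatinib alone the lapatinib combination gave 0.85 (95% interval −0.06 to 1.76; adjusted p = 0.0871). At this depth changes smaller than these intervals were not detectable.

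**Figure D3:**
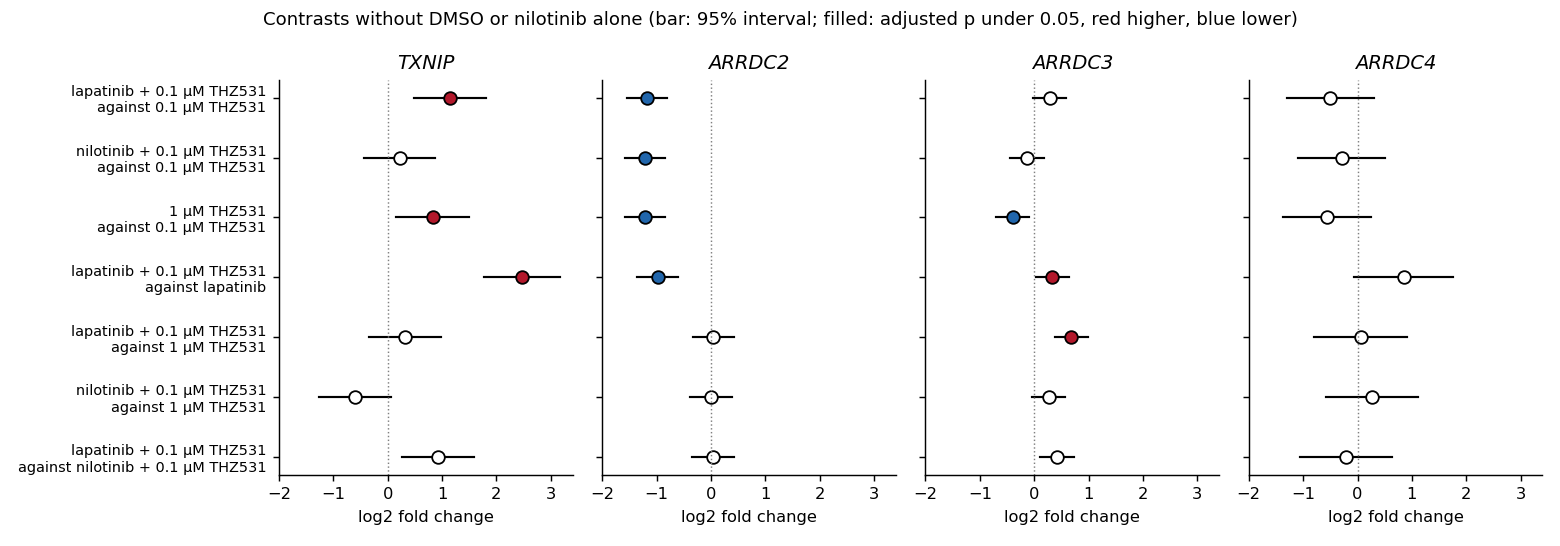
Points are log2 fold changes of the 4 members in the 7 contrasts that compare neither DMSO nor nilotinib alone. Bars are 95% intervals from the edgeR fit of all groups (3 libraries a group). TXNIP is filled in red in 3 contrasts, ARRDC2 in blue in 4, ARRDC3 in red in 2 and in blue in 1, and ARRDC4 in none.

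These counts of members are to be read against the whole table. Of all 16036 genes, 36.1% were lower and 35% higher with lapatinib plus THZ531 against 0.1 µM THZ531, where 1 member was lower and 1 higher. For nilotinib plus THZ531 against 0.1 µM THZ531 the shares were 35.6% and 34.3%, with 1 member lower and none higher, and for 1 µM against 0.1 µM THZ531 they were 35.9% and 34.3%, with 2 lower and 1 higher. For lapatinib plus THZ531 against lapatinib they were 37.4% and 34.9%, with 1 member lower and 2 higher. The 4 members are too few to set their share of calls apart from that of all genes, and nothing is read from it. Against DMSO, where TXNIP is not tested, ARRDC2 was lower in all 3 strong treatments and ARRDC3 higher in the lapatinib combination. The shares of all genes lower and higher there were 37.8% and 34.3% for lapatinib plus THZ531, 37.3% and 33.7% for nilotinib plus THZ531 and 36.8% and 33.1% for 1 µM THZ531. None of the tested members was called with 0.1 µM THZ531 (4.31% of genes lower, 1.78% higher) or with lapatinib (0.0561% lower, 0.256% higher).

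Calls between the strong treatments were fewer. Against 1 µM THZ531, 16.1% of genes were lower and 12.8% higher with lapatinib plus THZ531, where ARRDC3 was the only member called. For nilotinib plus THZ531 against 1 µM THZ531 the shares were 13% and 11.2%, and between the combinations they were 0.736% and 0.73%, with no member called by edgeR or DESeq2 in either. Unadjusted p-values under 0.05 were 0.00854 for TXNIP and 0.0103 for ARRDC3 between the combinations, and there were none for nilotinib plus THZ531 against 1 µM THZ531. The interaction of lapatinib with THZ531 was negative in 32% and positive in 28.2% of genes.

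Levels between genes can be compared roughly per length of exons. The length used was all annotated exon bases of a gene in GENCODE, 3604 for TXNIP and 4985 for ARRDC3. The transcripts present may be shorter, so the order of genes of similar level depends on this choice. TXNIP lies at chr1:145992435-145996579 (minus strand), ARRDC2 at chr19:18001124-18014102 (plus) and ARRDC4 at chr15:97960703-97973833 (plus) on GRCh38.p14. In DMSO, TXNIP had 10.6 and ARRDC3 10.0 CPM per kb of exon, ARRDC2 2.04 and ARRDC4 0.0206. With lapatinib and THZ531 the level of TXNIP was 25.1 CPM per kb, that of ARRDC3 13.98 and that of ARRDC2 1.06. With lapatinib alone TXNIP was at 4.52 CPM per kb, below ARRDC3 at 11.1. With 1 µM THZ531 TXNIP was at 20.1 CPM per kb and ARRDC3 at 8.71.

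Scaling sets where higher and lower divide when many transcripts change, and it matters for TXNIP and ARRDC3. Scaling to the 13 mRNAs made in mitochondria, which RNA polymerase II does not transcribe, shifted the median log2 FC of all genes to −0.65 for lapatinib plus THZ531, −0.59 for nilotinib plus THZ531 and −0.50 for 1 µM THZ531, each against 0.1 µM THZ531. These mRNAs held 1.22% ± 0.0669 of counts with 0.1 µM THZ531 and 1.60% ± 0.139 with lapatinib plus THZ531 (SD, n = 3). Under this scaling the TXNIP rise with lapatinib plus THZ531 was 0.46 (edgeR adjusted p = 0.170) and that with 1 µM THZ531 0.29 (0.430), both above the median of all genes but no longer called. TXNIP with nilotinib plus THZ531 changed sign, to −0.41, and was at −0.047 with library size alone. The TXNIP difference between lapatinib plus THZ531 and lapatinib alone was called under every scaling run (1.91 to 2.63). ARRDC3 with lapatinib plus THZ531 against 0.1 µM THZ531 went from 0.29 to −0.40 (adjusted p = 0.0332), and its rises against DMSO and lapatinib alone turned to −0.21 and −0.22 (adjusted p = 0.281 and 0.254). ARRDC2 stayed lower under every scaling, at −0.99 to −1.86 in that contrast.

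**Figure D4:**
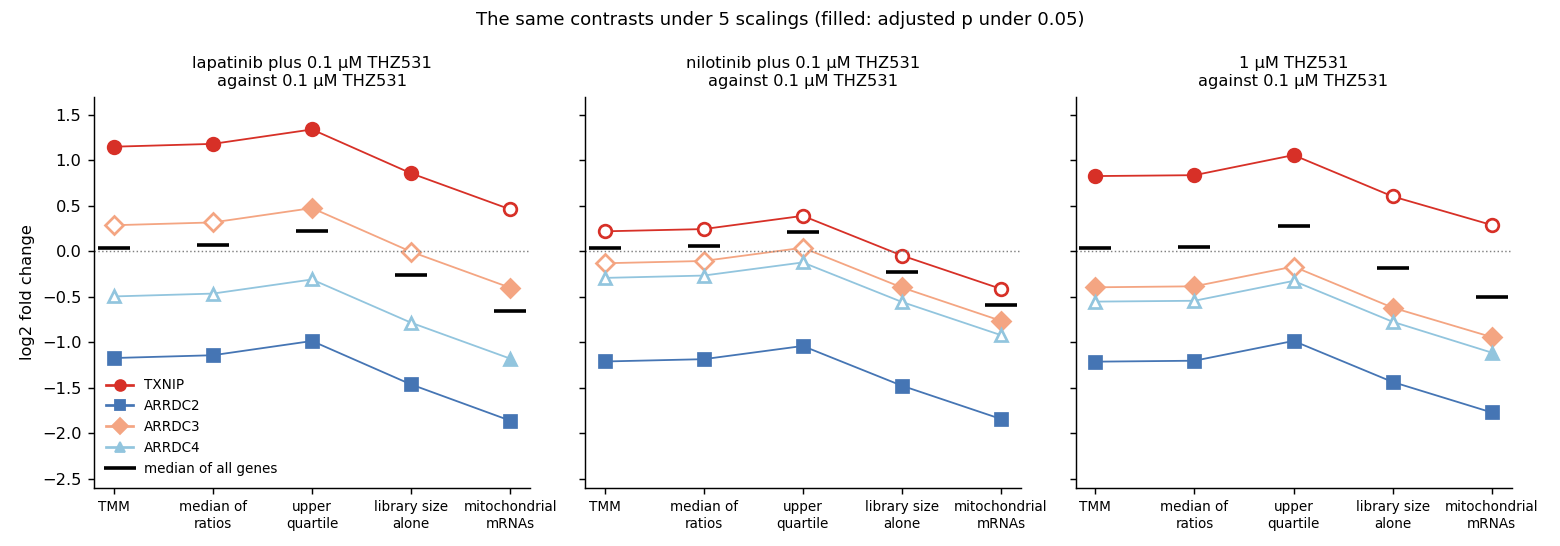
The vertical axis is the log2 fold change against 0.1 µM THZ531 and the horizontal axis lists 5 scalings, with filled symbols for adjusted p under 0.05 and black bars for the median of all genes. TXNIP stays above and ARRDC2 below that median in all panels, while the whole set is shifted down with mitochondrial mRNAs, where the median with lapatinib is −0.65.

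Of the factors that act on TXNIP, MLX fell. Its mean was 33.4 ± 0.882 CPM in DMSO, 28.04 ± 1.14 CPM with 0.1 µM THZ531 and 7.86 ± 0.0975 CPM with lapatinib plus THZ531 (SD, n = 3), a log2 FC of −1.83 against 0.1 µM THZ531 (edgeR adjusted p = 4.84e-13). With nilotinib plus THZ531 MLX was at 7.95 CPM and with 1 µM THZ531 at 9.62 CPM, and it was lower under every scaling run. MLXIP, the MondoA gene, differed by −0.22 with lapatinib plus THZ531 (adjusted p = 0.120), by −0.29 with nilotinib plus THZ531 (0.0438, or 0.0541 without nilotinib replicate 1) and by −0.52 with 1 µM THZ531 (0.000979), and under mitochondrial scaling by −0.91 with lapatinib plus THZ531 (8.12e-07). MLXIPL, the ChREBP gene, was under 0.04 CPM in every group and was not tested. MLX and TXNIP moved in opposite directions in the lapatinib combination under TMM. The part of MLX in the level of TXNIP was not tested. With single inhibitors MLX was not called (log2 FC 0.01 with lapatinib and 0.12 with nilotinib, edgeR adjusted p 0.999 and 0.713).

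The NEDD4-family ligases, partners of the PPxY motifs, were mostly lower. Of 9 tested, 8 fell and 1 rose in either combination against 0.1 µM THZ531, and 8 fell with 1 µM THZ531. At least 8 were lower under all 5 scalings. Of all genes, 36.1% were lower with lapatinib plus THZ531, 35.6% with nilotinib plus THZ531 and 35.9% with 1 µM THZ531 under TMM. The list median was −0.98 with lapatinib plus THZ531, where that of all genes was 0.03. HECW2 fell by 1.40 on the log2 scale, ITCH, the ligase shown to act on TXNIP itself, by 1.17 and NEDD4 by 1.16, with edgeR adjusted p-values of 1.41e-12, 1.23e-12 and 1.96e-11. ITCH went from 86.7 ± 1.85 CPM to 38.6 ± 2.53 CPM and NEDD4 from 56.4 ± 2.87 CPM to 25.2 ± 1.84 CPM (SD, n = 3). SMURF1 was the exception, rising from 64.7 CPM to 139 CPM with lapatinib plus THZ531 (log2 FC 1.10, edgeR adjusted p = 2.05e-07). With 1 µM THZ531 it was at 62.9 CPM with a log2 FC of −0.04 (edgeR adjusted p = 0.779).

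Other arrestin-fold genes did not share 1 direction. Of the 9 listed, SAG and ARR3, the visual arrestins, were too low to be tested. Of the other 7, 4 fell and 2 rose with lapatinib plus THZ531 against 0.1 µM THZ531. In that contrast 36.1% of all genes were lower and 35% higher, and nothing is read from these few counts. The beta-arrestin genes parted: ARRB1 fell by 0.82 (edgeR adjusted p = 1.43e-08) and ARRB2 rose by 0.35 (5.65e-05), the latter, named after its values were seen, reversed to −0.34 under mitochondrial scaling. VPS26C and VPS26B, whose products belong to endosomal cargo-sorting complexes, fell by 0.51 and 0.47 (adjusted p = 1.88e-06 and 0.000202). ARRDC5, an alpha-arrestin like the members, averaged 0.0352 CPM with 0.1 µM THZ531. It averaged 0.448 CPM with lapatinib plus THZ531, 0.395 CPM with nilotinib plus THZ531 and 0.465 CPM with 1 µM THZ531, and stayed scarce even there. The filter asked for 0.0956 CPM in 3 libraries, so ARRDC5 entered the tested genes through the strong treatments, where it was high. Its differences are therefore a description with no test, although it is 1 of the 2 genes counted as rising above.

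In the thioredoxin system, to which TXNIP binds, 9 of 10 genes were higher in each strong treatment against 0.1 µM THZ531 under TMM. Without 1 µM THZ531 replicate 2, 8 were higher with 1 µM THZ531. With all libraries the list medians were 0.47, 0.47 and 0.53. Of all genes, 35%, 34.3% and 34.3% were higher in these contrasts. TXN rose from 362 ± 17.99 CPM to 740 ± 40.7 CPM with lapatinib plus THZ531, a log2 FC of 1.03 (edgeR adjusted p = 7.97e-11), and it kept its direction under mitochondrial scaling at 0.35 (0.0298). The peroxiredoxin genes PRDX5, PRDX1 and PRDX2 rose by 0.79, 0.72 and 0.70. Most of the list rested on the scaling: with mitochondrial mRNAs 1 gene was called higher and 2 lower, and the list median was −0.21. TXNRD1, the cytosolic thioredoxin reductase, differed by −0.04 (adjusted p = 0.507).

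Genes of glucose uptake and phosphorylation were mixed, with 3 of 6 lower and 2 higher with lapatinib plus THZ531 against 0.1 µM THZ531. The shares of all genes there were 36.1% lower and 35% higher, and nothing is read from these few counts. SLC2A1, the transporter that TXNIP restrains, fell from 139 ± 3.56 CPM to 115 ± 7.53 CPM with lapatinib plus THZ531 (log2 FC −0.27, edgeR adjusted p = 0.00108) and to 94.0 ± 4.70 CPM with nilotinib plus THZ531 (−0.56, 2.56e-07). HK2, a hexokinase, rose by 0.59 (adjusted p = 0.00105), at −0.10 under mitochondrial scaling. KLF10, like TXNIP a sugar-responsive gene, fell by 0.39, and PFKFB3, an activator of glycolysis, by 0.31 (adjusted p = 0.000684 and 0.0219). With lapatinib or nilotinib alone, where TXNIP was lowest, SLC2A1 was at 123 and 110 CPM against 122 CPM in DMSO and was not called.

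FOXO and glucocorticoid receptor genes were listed because TXNIP is a known target of both. Of 11 tested FOXO genes and targets, 4 rose and 3 fell with lapatinib plus THZ531 against 0.1 µM THZ531. With 1 µM THZ531 none rose and 6 fell, or 4 fell without its replicate 2. Of all genes, 35% were higher and 36.1% lower with lapatinib plus THZ531, and 34.3% and 35.9% with 1 µM THZ531. Nothing is read from the FOXO counts. FOXO1 itself rose from 5.42 to 10.6 CPM in the lapatinib combination (log2 FC 0.97, edgeR adjusted p = 0.000264) while with 1 µM THZ531 its 3 libraries ranged from 2.01 to 4.90 CPM with a median of 4.65 CPM. The log2 FC of FOXO1 at 1 µM was −0.49 (adjusted p = 0.0397), and without replicate 2 of 1 µM THZ531 it was −0.18 (0.210). INSR, SESN3 and SESN1 fell by 1.63, 1.18 and 1.04 with lapatinib plus THZ531. Of 7 tested genes of the glucocorticoid list, 5 rose and 2 fell with lapatinib plus THZ531, where 35% of all genes were higher and 36.1% lower. With nilotinib plus THZ531 4 rose and none fell, and with 1 µM THZ531 2 rose and 1 fell. Nothing is read from these few counts. The 2 that fell, named after their values were seen, were the receptor gene NR3C1 and FKBP5. In the fit without nilotinib replicate 1 they were at −0.41 and −0.20 with lapatinib plus THZ531, and NR3C1 was at −1.16 with 1 µM THZ531. SGK1, a kinase gene, rose from 55.6 ± 3.37 CPM to 240 ± 6.81 CPM with lapatinib plus THZ531 (log2 FC 2.11, adjusted p = 9.01e-16), to 208 CPM with nilotinib plus THZ531 and to 216 CPM with 1 µM THZ531, also under mitochondrial scaling in the lapatinib combination (1.43). DUSP1, TSC22D3 and PER1 rose by 0.97, 0.93 and 0.72 with the lapatinib combination, and under mitochondrial scaling they were at 0.28, 0.24 and 0.03 and not called. KLF9 was at 0.55 (adjusted p = 0.0225) under TMM and at −0.14 under mitochondrial scaling.

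**Figure D5:**
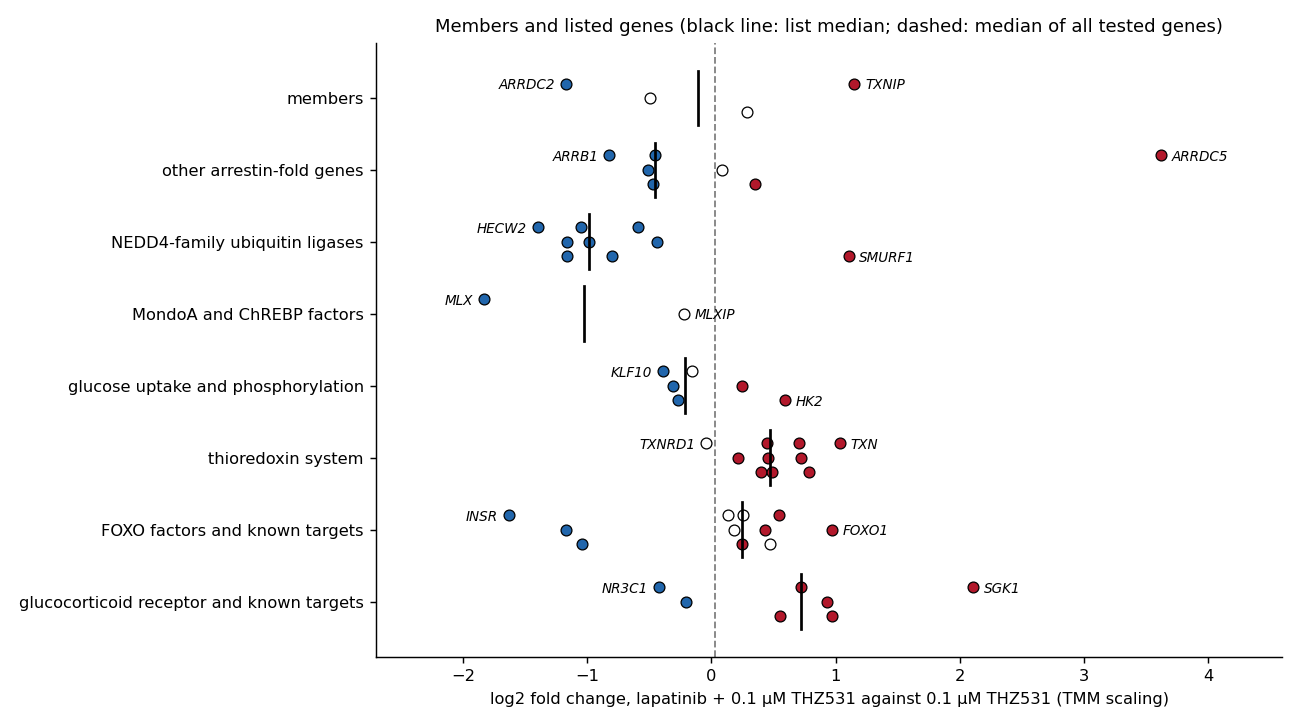
Each point is a gene, placed by its log2 fold change for lapatinib plus 0.1 µM THZ531 against 0.1 µM THZ531, in red (higher) or blue (lower) at adjusted p under 0.05 and open otherwise. TXNIP at 1.15 and ARRDC2 at −1.17 lie on opposite sides, and 8 of 9 NEDD4-family ligases lie below the median of all genes.

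Of the named partners, DDIT4, a stress-induced inhibitor of mTORC1 whose product has been found in a complex with TXNIP, was at 7.28 ± 0.593 CPM in DMSO, 19.9 ± 1.696 CPM with lapatinib, 6.47 ± 0.938 CPM with 0.1 µM THZ531 and 36.1 ± 3.25 CPM with both (SD, n = 3). Its log2 FC was 2.48 for lapatinib plus THZ531 against 0.1 µM THZ531 (edgeR adjusted p = 3.17e-07) and 1.45 for lapatinib against DMSO (0.0324). DDIT4 and TXNIP were thus both higher in the lapatinib combination, whereas with lapatinib alone DDIT4 was higher and TXNIP lower than in DMSO. In nilotinib the highest DDIT4 library was at 19.8 CPM and the others at 6.48 and 7.38 CPM. NLRP3, the inflammasome sensor that TXNIP can bind, had mean levels under 0.2 CPM in every group, and ITGB4, the integrin beta-4 gene, was too low to be tested.

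The patterns most like each member were found by Pearson's r over the 7 group means of log2 CPM among 10895 genes (10896 for ARRDC4). These are descriptions over 7 points that share libraries. For TXNIP they were CEMIP2 (0.968), STEEP1 (0.965), TP53INP2 (0.951), TMEM248 (0.934) and SLC4A2 (0.926), and 3 genes exceeded 0.95. CEMIP2 ranged only from 45.2 CPM with nilotinib to 71.5 CPM with 1 µM THZ531, so a like order did not mean a like size. Over the 21 libraries TP53INP2 (0.903) and CEMIP2 (0.885) were again among the 5 most alike, joined by DNAJA1, TNFRSF21 and DYNLL2. For ARRDC2 the leading genes were RNF121, TIMM21, WRAP73, YTHDF2 and GTPBP4, all at 0.997 or 0.998, and 2419 genes exceeded 0.95, so that its pattern was one of many. For ARRDC3 they included MIR550A3HG (0.933), NDUFAF5 (0.921) and LPAR1 (0.917), and over the libraries LPAR1 stayed among the first 5. For ARRDC4, whose counts are too low for a firm pattern, they were MTG1 (0.956), ACOT2 (0.949), ZDHHC16 (0.945), GPRC5B (0.938) and VDAC3 (0.937). Among the members, r over the group means was −0.71 for TXNIP with ARRDC2, 0.50 for TXNIP with ARRDC3 and −0.14 for ARRDC2 with ARRDC3.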

How the data were processed

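RNA from 21 Hs578T libraries (7 groups, 3 replicates each) was sequenced as unstranded, polyA-selected read pairs. The authors aligned the reads to GRCh38 with HISAT2 (version 2.1.0 per the submitters' processing notes) and deposited raw counts per gene from featureCounts, without normalization. Whether pairs or single ends were counted is not given in the sources used here, and 61.6% to 66.4% of low counts per library were even. All columns were mapped to groups by name, with 0 columns unused, and 27745 of 28395 gene identifiers were matched to RefSeq symbols. Total counts were 97612207 to 112229052 per library (median 104639800). Sampling noise alone did not account for the spread between replicates (chi-square per degree of freedom 7.75 to 144).

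Counts were filtered with filterByExpr and TMM-scaled, and all 7 groups were fitted with 1 mean each by glmQLFit in edgeR 4.0.16 (R 4.3.3, limma 3.58.1), leaving 14 residual degrees of freedom per gene. Each contrast used glmQLFTest with Benjamini-Hochberg adjustment over 16036 genes, and a call is an adjusted p under 0.05. A prior count of 2 was added for log2 CPM. The test was checked on simulated counts.

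The members, gene lists and contrasts were chosen with earlier results of these data known. Genes named beyond the members are 11 regulators and partners always given (MLX, MLXIP, MLXIPL, TXN, TXNRD1, ITCH, NEDD4, SLC2A1, HK2, DDIT4, KLF9), up to 4 genes with the largest log2 FC (lapatinib plus THZ531 against 0.1 µM THZ531) in each other list, 5 genes of like pattern per member (average log2 CPM 1 or more), and the 2 genes after TXNIP in the nilotinib ranking. Alternatives were median-of-ratios, upper-quartile, library-size and mitochondrial mRNA scaling, no filter or a minimum of 10 counts per library, DESeq2 1.42.0, a fit of only the groups compared, a replicate block, halved counts, and leaving out each library. Counts over the gene lists without nilotinib replicate 1 or 1 µM THZ531 replicate 2 were added after seeing the data. Some genes that this rule names are not reported here.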

Additional observations from a re-analysis of the deposited data

Results flagged for a closer look

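With lapatinib and 0.1 µM THZ531, ARRDC2 responded otherwise than with lapatinib alone, and the values of TXNIP, a description, also differed. The effect of lapatinib on TXNIP was negative without THZ531 in all 3 libraries and positive with it in all 3. The difference was 2.38 on the log2 scale. TXNIP was flagged by the same cut as ARRDC2, an edgeR adjusted p under 0.05 for the interaction. For TXNIP this is no valid test, since the DMSO libraries took part in choosing the gene. For ARRDC2 the difference was −1.21, which passed edgeR's test of the interaction (adjusted p = 0.000295), also in all 21 fits that left out 1 library. It is not particular to ARRDC2: the interaction was called negative in 32% and positive in 28.2% of all genes. The group means of 2419 genes followed those of ARRDC2 at r over 0.95. ARRDC3 was higher with lapatinib plus 0.1 µM THZ531 than with 1 µM THZ531, by 0.68 on the log2 scale (edgeR adjusted p = 0.00143). All 3 libraries lay above all 3 of 1 µM THZ531, and 12.8% of all genes were called higher in this contrast. Among markers of other cell types PTPRC was at 1.76 CPM with lapatinib plus THZ531 and 2.33 CPM with 1 µM THZ531, and its part was not tested.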

How the results depend on the processing

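Of the alternatives, mitochondrial mRNA scaling changed most. It ended the TXNIP calls against 0.1 µM THZ531 for lapatinib plus THZ531 (0.46) and 1 µM THZ531 (0.29), the latter also ended by library size alone (0.60). For ARRDC3 it reversed lapatinib plus THZ531 against 0.1 µM THZ531 (−0.40), DMSO (−0.21) and lapatinib (−0.22), and nilotinib plus THZ531 against DMSO (−0.57) and nilotinib (−0.046). It called ARRDC3 lower with nilotinib plus THZ531 against 0.1 µM THZ531 (−0.76; −0.40 with library size alone) and ARRDC4 lower against 0.1 µM THZ531 with lapatinib plus THZ531 (−1.18) and 1 µM THZ531 (−1.11). ARRDC3 with lapatinib plus THZ531 against 0.1 µM THZ531 was called with upper-quartile scaling (0.47) and only the groups compared (0.28), and its fall with 1 µM THZ531 was lost under both (−0.17 and −0.40). The replicate block gave a TXNIP log2 FC of 1.13 for lapatinib plus THZ531 against 0.1 µM THZ531 and changed no call of a member in any contrast. The numbers were not taken to pair the samples, since r of the 63 same-number pairs ranged from −0.85 to 0.91 and only 36 exceeded 0.1. Mean r was 0.161 for the same number and −0.0735 for other numbers, and 11 of 21 libraries were closest to their own number.

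Leaving out 1 library at a time, the log2 FC lay between 0.70 and 0.96 for TXNIP with 1 µM against 0.1 µM THZ531, between 0.19 and 0.37 for ARRDC3 with lapatinib plus THZ531 against 0.1 µM THZ531, and between −0.54 and −0.19 for ARRDC3 with 1 µM against 0.1 µM THZ531, each with changed calls. Over the tested contrasts of all members, 20 such values lost and 5 gained a call. The causes were not tested. ARRDC4 had no value with at least 10 counts in every library, and DESeq2 gave it no adjusted p in 3 contrasts.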
